A study of Mus musculus with 9 samples.

Results

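The genes described here encode the chaperonins, the barrel-shaped protein-folding machines of the cytosol and of mitochondria. Members were the rows of the gene table whose Ensembl mouse identifier carries the symbol Tcp1, Cct2, Cct3, Cct4, Cct5, Cct6a, Cct7, Cct8, Hspd1 or Hspe1, which gave 10 genes of 35771 in the table. All 10 passed the filter on low counts that left 13424 genes for testing. This rule did not use their levels or changes, but the set was chosen with earlier results of these data known.

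RNA was sequenced from mouse embryonic stem cells (ESCs) of mixed background that were homozygous for iMOS T1-Myc, an inducible construct that gives cells different numbers of extra Myc and EYFP copies, and that carried RERT, which makes recombination depend on tamoxifen. Cultures were exposed to 20 µM 4-hydroxytamoxifen for 24 h, and cells were sorted on the fluorescence of EYFP 24 h after the drug was removed. Of the 9 libraries, 3 came from sorted cells with 2 extra Myc copies, 3 from sorted cells with no extra copy out of induced mosaic cultures, and 3 from sorted uninduced cultures of the same genotype. The 2 induced populations therefore both saw the drug and a mosaic culture, while the uninduced cells saw neither, although the treatment text is repeated for them in the labels. The promoter driving the extra Myc and whether the line is 1 clone are not given in the labels, which call the 3 samples of a group biological replicas without saying that they were separate cultures, so p-values measure the spread between these samples.

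The cytosolic chaperonin, called CCT or TRiC, is a double ring in which each ring holds one copy of every CCT subunit. It takes in newly made actin, tubulin and many WD40-repeat proteins and closes over them with ATP. The mitochondrial chaperonin is a ring of Hsp60, encoded by Hspd1, with a lid of Hsp10, encoded by Hspe1, and folds proteins after their import into the matrix. The transcription factor Myc raises the expression of many genes of growth and biosynthesis, and ESCs make protein at a high rate.

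Hspd1, on the minus strand, and Hspe1, on the plus strand, are transcribed away from each other on chromosome 1, and their annotated 5′ ends overlap. The first stretch below lies within the annotated Hspd1 gene and the second within Hspe1, and the annotation places all 30 bases of each in a UTR. They are shown because this pair had the largest changes among the 10 genes. The first stretch, chr1:55088053-55088082 on the plus strand (GRCm38.p6, from RefSeq), has in capitals a run of alternating TTC and GAA heat shock repeats, matched as GAANNTTC or TTCNNGAA. The second stretch, chr1:55088306-55088335 on the minus strand, has in capitals the E-box CACGTG, a sequence that Myc with its partner Max is known to bind. This E-box lies 80 bases before the Hspd1 start at chr1:55088243.
heat shock stretch of Hspe1: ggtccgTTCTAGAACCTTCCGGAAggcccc
E-box stretch of Hspd1: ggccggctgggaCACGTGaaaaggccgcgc

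In RefSeq windows from 250 bases before to 50 bases after the start, searched on both strands, 9 of the 10 genes had an entry, with 12 windows among them. CACGTG occurred for 1 of these 9 genes, Hspd1, against 7.15% of all 32851 windows. GAANNTTC occurred for 3 of 9 (Cct2, Hspd1 and Hspe1), against 7.86% of all windows. TTCNNGAA occurred for 4 of 9 (Cct5, Cct6a, Hspd1 and Hspe1), against 8.52% of all windows. The matches of Hspd1 and Hspe1 to both heat shock patterns are the same bases, and the patterns overlap each other in that run. It lies in the window of Hspe1 and in that of another Hspd1 start, at chr1:55087932, which has no CACGTG. The window of the Hspd1 start with CACGTG, at chr1:55088243, has no heat shock match. GGGCGG, the GC box, occurred for 9 of 9 genes, against 35.7% of all windows. CCAAT occurred for 5 of 9 (Tcp1, Cct3, Cct6a, Cct7 and Hspd1), against 37.4% of all windows. A gene with several windows had more chances of a match, and a match describes letters only.

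The stretches upstream of Cct8 and Cct7 are shown because Cct8 had the largest and Cct7 the smallest change of the CCT subunits between the cells with 2 extra copies and the cells with no extra copy. That of Cct8 is chr16:87495874-87496119 on the minus strand and that of Cct7 is chr6:85451284-85451504 on the plus strand, both from RefSeq (GRCm38.p6). Capitals mark ATTGG, the CCAAT box read on the other strand, which occurs 3 times before Cct7 and not in the stretch before Cct8.
upstream run of Cct8: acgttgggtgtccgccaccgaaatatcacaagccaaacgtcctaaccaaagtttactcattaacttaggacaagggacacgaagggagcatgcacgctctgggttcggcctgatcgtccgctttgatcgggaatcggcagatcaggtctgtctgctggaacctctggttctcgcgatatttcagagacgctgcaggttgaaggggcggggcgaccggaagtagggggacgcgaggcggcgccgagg
upstream run of Cct7: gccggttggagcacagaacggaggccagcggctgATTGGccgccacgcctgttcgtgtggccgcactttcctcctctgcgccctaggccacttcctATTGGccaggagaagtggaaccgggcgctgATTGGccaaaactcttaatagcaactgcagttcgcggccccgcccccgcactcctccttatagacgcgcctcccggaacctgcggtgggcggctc

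Library totals ran from 4165286 to 8872303 expected counts. Levels are given as CPM (counts scaled to a common library total), so each is a share of a library; total RNA per cell was not measured, and in these bulk samples fewer cells of a type and less RNA per cell cannot be told apart. Myc checked the labels: it had 138, 147 and 141 CPM in cells with 2 extra copies, 31.8, 30.6 and 32.4 CPM in cells with no extra copy, and 11.5, 14.1 and 14.2 CPM in uninduced cells. Cells labelled as having no extra copy thus held 2.36-fold more Myc RNA than uninduced cells (log2 change 1.24, SE 0.10, adjusted p = 1.10e-11), and reads of the extra copies and of the resident gene are counted together. The related Mycn went the other way, with 125, 126 and 127 CPM with 2 extra copies, 151, 151 and 156 CPM with no extra copy and 186, 186.5 and 189.8 CPM in uninduced cells. The 8 ESC markers summed to between 3506 and 3694 CPM with 2 extra copies, 3758 and 3832 CPM with no extra copy and 3627 and 3694 CPM in uninduced cells. Of these 8, none rose and 3 fell at an adjusted p below 0.05 with 2 extra copies against no extra copy. Of all tested genes 7.70% fell there. Among the 3 were Nanog (log2 change -0.25, adjusted p = 5.41e-05) and Pou5f1 (log2 change -0.13, adjusted p = 0.00347). Against uninduced cells, 1 rose and 2 fell with 2 extra copies, and 3 rose and 2 fell with no extra copy. There, 12.8% and 7.10% of all tested genes rose, and 12.1% and 6.39% fell. The first library with 2 extra copies stood apart from the other two of its group, with a chi-square per degree of freedom of 2.67 and 3.02, against 1.35 to 1.80 for every other pair of replicates.

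The chaperonin genes were higher in cells with 2 extra copies than in cells with no extra copy. Of the 10 genes, 9 rose and none fell at an adjusted p below 0.05, where 8.30% of all tested genes rose, 7.70% fell and 16.0% changed in either direction. The rises were small, from 1.10-fold for Tcp1 to 1.22-fold for Hspe1, and Cct7 did not pass the test. In these 9 genes every library with 2 extra copies lay above every library with no extra copy, which held for 15.4% of all genes tested, while 15.2% lay below with no overlap. The median log2 change was 0.17 over the 8 CCT subunits and 0.27 over Hspd1 and Hspe1, against -0.01 over all genes tested.

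The mitochondrial pair had the largest changes. Hspd1, which encodes the Hsp60 ring, had 1348, 1327 and 1384 CPM in cells with 2 extra copies, 1164, 1121 and 1135 CPM in cells with no extra copy, and 1033, 1025 and 1024 CPM in uninduced cells. The 3 groups did not overlap in any library and ordered by their Myc level. Hspd1 was 1.19-fold higher with 2 extra copies than with no extra copy (log2 change 0.25, SE 0.03, adjusted p = 9.25e-07) and 1.32-fold higher than in uninduced cells (log2 change 0.40, SE 0.03, adjusted p = 1.97e-11). It was also 1.11-fold higher in cells with no extra copy than in uninduced cells (log2 change 0.15, SE 0.03, adjusted p = 9.83e-04). In the comparison with uninduced cells, 792 of the 13424 genes had a larger rise with 2 extra copies.

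Hspe1, which encodes the Hsp10 lid, had 414, 423 and 443 CPM with 2 extra copies, 364, 342 and 344 CPM with no extra copy, and 289.7, 329.6 and 336 CPM in uninduced cells. Its groups did not overlap either, but the first uninduced library was low and the uninduced spread wide for this gene, with a coefficient of variation of 7.89%, against 0.48% for Hspd1. Hspe1 was 1.22-fold higher with 2 extra copies than with no extra copy (log2 change 0.29, SE 0.05, adjusted p = 1.05e-04) and 1.34-fold higher than in uninduced cells (log2 change 0.42, SE 0.05, adjusted p = 2.09e-07). Between cells with no extra copy and uninduced cells it did not pass the test (log2 change 0.14, SE 0.05, adjusted p = 0.0537). That last change moved to 0.08 on the log2 scale (adjusted p = 0.185) when the trend of each library over transcript length was taken out and to 0.07 (adjusted p = 0.336) without the first uninduced library, and passed the test without the third uninduced library (adjusted p = 0.0213). Hspe1 has the shortest transcript of the 10 genes. Replicate 1 of the uninduced cells had the steepest trend towards long transcripts, at 0.05 on the log2 scale per doubling of length. Replicates 2 and 3 with 2 extra copies had trends towards short transcripts, at -0.047 and -0.056, against 0.006 for replicate 1. Trends were -0.005, 0.004 and 0.015 with no extra copy, and 0.019 and 0.018 in the other uninduced libraries. These trends used the longest annotated transcript of each gene, which for Hspe1 is annotated as a retained intron. With them taken out, the log2 change of Hspe1 with 2 extra copies was 0.35 against uninduced cells, below the 0.38 of Hspd1. Against no extra copy the values were 0.27 for Hspe1 and 0.24 for Hspd1. Both genes still passed the test in these 2 comparisons.

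The ring and lid transcripts kept a nearly fixed ratio. Hspd1 CPM divided by Hspe1 CPM was 3.26, 3.14 and 3.12 in cells with 2 extra copies, 3.20, 3.28 and 3.30 in cells with no extra copy, and 3.57, 3.11 and 3.05 in uninduced cells. The groups overlapped, and the high value was that of the first uninduced library. These ratios are not corrected for transcript length. Per length of the longest transcript of the basic annotation set, chosen after the data were seen, the ratio averaged 1.014, 1.04 and 1.035 in the same order. The expected counts of the pair were fractions in 5 of 9 libraries while their sum was a whole number in all 9 (tolerance 0.005), so some reads were divided between these overlapping genes. The exons of the 2 genes, which run on opposite strands, overlap in 7.60% of the exonic length of Hspe1 and 4.24% of that of Hspd1. Each gene also has a close copy in the genome (Hspd1-ps3 for Hspd1 and AC117239.2 for Hspe1), so a part of their reads is uncertain.

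**Figure D1:**
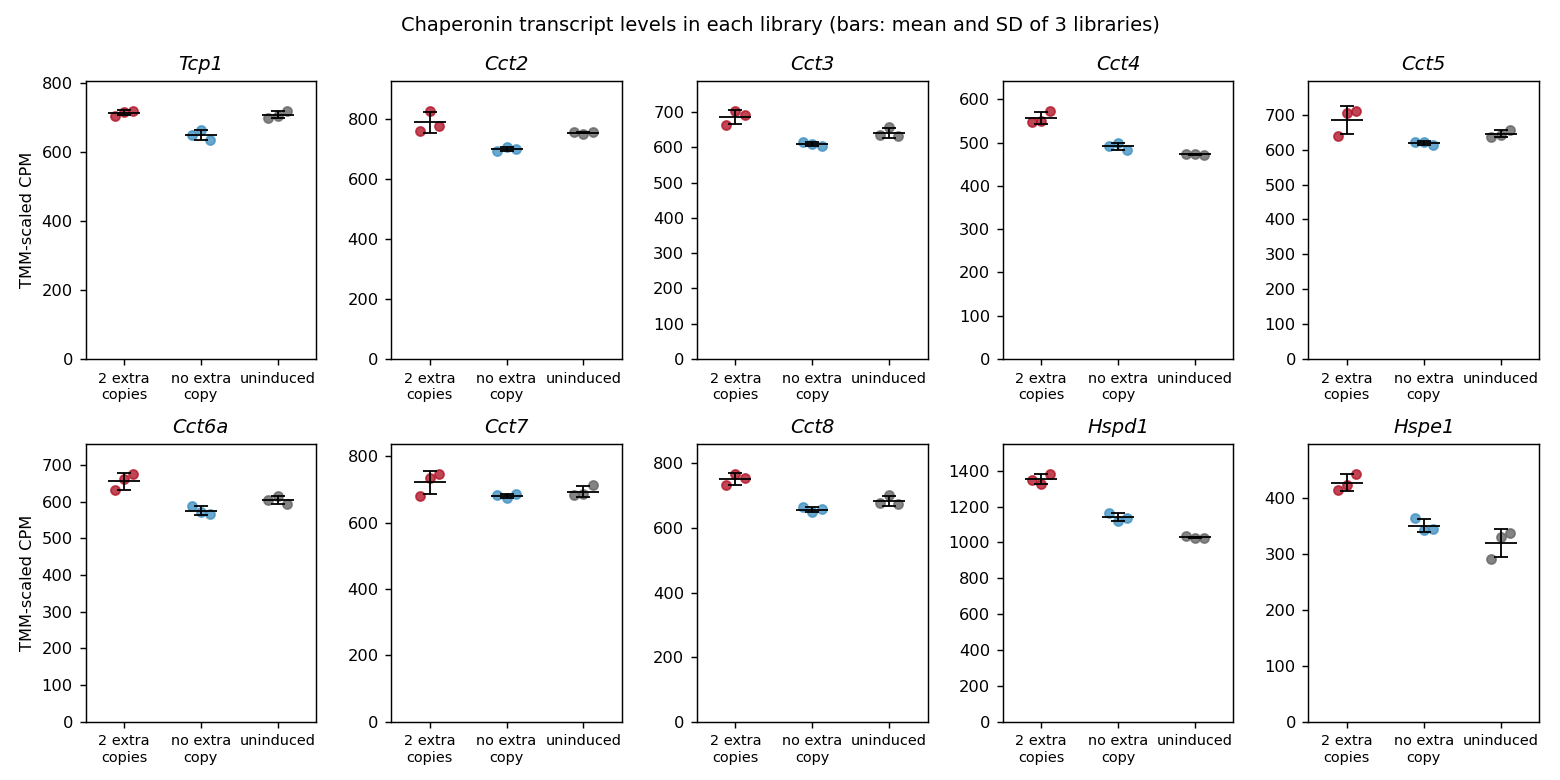
Transcript level of each of the 10 chaperonin genes in TMM-scaled CPM (vertical axis, from 0), with 1 point per library and bars for the mean and SD of 3 libraries; columns are cells with 2 extra Myc copies, cells with no extra copy and uninduced cells. Hspd1 and Hspe1 step down from left to right, while for 7 CCT subunits the middle group has the lowest mean.

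The CCT subunits had smaller changes between the 2 induced populations than the mitochondrial pair. Their summed level was 5360, 5665 and 5652 CPM with 2 extra copies, 5010.2, 4993 and 4944 CPM with no extra copy, and 5161, 5231 and 5219 CPM in uninduced cells. The sum was highest with 2 extra copies and lowest with no extra copy, with no overlap between groups. The means were 5559 ± 173, 4982 ± 34.2 and 5204 ± 37.7 CPM in the same order (SD, n = 3 each).

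Cct8, the theta subunit of CCT, had 733, 769 and 754 CPM with 2 extra copies, 664, 648 and 658 CPM with no extra copy and 676, 701 and 674 CPM in uninduced cells. It was 1.15-fold higher with 2 extra copies than with no extra copy (log2 change 0.20, SE 0.03, adjusted p = 8.93e-05) and 1.10-fold higher than in uninduced cells (log2 change 0.14, SE 0.03, adjusted p = 0.00258). Among the CCT genes this was the largest change between the 2 induced populations. Cct6a, the zeta subunit, had 631, 661 and 676 CPM with 2 extra copies, 588, 571 and 567 CPM with no extra copy and 603, 615 and 595 CPM in uninduced cells. It rose 1.14-fold over cells with no extra copy (adjusted p = 2.34e-04) and 1.09-fold over uninduced cells (adjusted p = 0.0115). The rise over uninduced cells was lost without the third library with 2 extra copies (adjusted p = 0.0691) or without the third uninduced library (adjusted p = 0.0534).

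Cct3, the gamma subunit, had 662.5, 703 and 692 CPM with 2 extra copies, 616, 609 and 603 CPM with no extra copy and 633.5, 656 and 632.5 CPM in uninduced cells. It was 1.13-fold higher with 2 extra copies than with no extra copy (adjusted p = 6.24e-04). Its 1.07-fold rise over uninduced cells was near the threshold (adjusted p = 0.0333). It missed the threshold, at adjusted p between 0.0511 and 0.149, with upper-quartile scaling, with library totals alone, with no filter, with only the 2 groups fitted, and without replicate 2 or 3 with 2 extra copies or replicate 1 or 3 of the uninduced cells. Cct2, the beta subunit, had 761, 828 and 779 CPM with 2 extra copies, 693, 706 and 702 CPM with no extra copy and 756, 752 and 757 CPM in uninduced cells. It was 1.13-fold higher than in cells with no extra copy (adjusted p = 5.56e-04), while the log2 change of 0.06 against uninduced cells did not pass the test (SE 0.03, adjusted p = 0.178), although the libraries of those groups did not overlap.

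Cct5, the epsilon subunit, had 639, 705 and 711 CPM with 2 extra copies, 623, 622 and 613 CPM with no extra copy and 637, 643 and 657 CPM in uninduced cells. The first library with 2 extra copies lay well below the other two and within the uninduced range. Cct5 rose 1.11-fold over cells with no extra copy (adjusted p = 5.83e-03) and did not pass against uninduced cells (log2 change 0.09, SE 0.04, adjusted p = 0.0859). Tcp1, the alpha subunit for which the complex was first named, had 704, 715 and 718 CPM with 2 extra copies, 649, 663.5 and 633 CPM with no extra copy and 698, 704 and 718 CPM in uninduced cells. It was 1.10-fold higher than in cells with no extra copy (adjusted p = 4.61e-03) and within 0.01 on the log2 scale of uninduced cells (SE 0.03, adjusted p = 0.829), a change whose sign turned with library totals alone (log2 change -0.01).

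Cct7, the eta subunit, was the exception. It had 682, 735 and 748 CPM with 2 extra copies, 684, 674 and 686 CPM with no extra copy and 682.5, 685.5 and 713 CPM in uninduced cells. Its first library with 2 extra copies lay among the libraries with no extra copy, and the log2 change of 0.08 between these groups did not pass the test (SE 0.04, adjusted p = 0.112). Without that library the change was 0.14 on the log2 scale and passed (adjusted p = 0.00204).

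**Figure D2:**
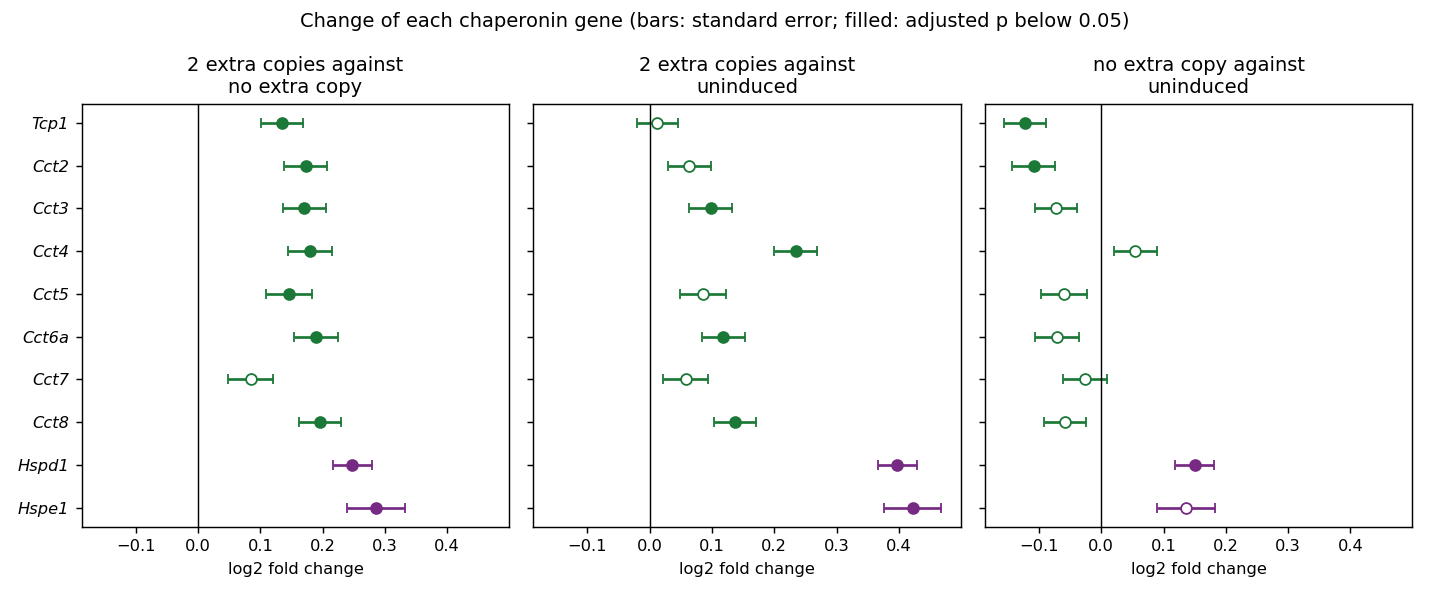
Log2 fold change of each gene (horizontal axis) with its standard error, in the 3 comparisons, each with the cells named first over those named second; filled points passed the test at an adjusted p below 0.05. In the left panel 9 of 10 points are filled, and in the right panel Hspd1 lies above 0 while Tcp1 and Cct2 lie below it.

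Against uninduced cells, 6 of the 10 genes rose in cells with 2 extra copies and none fell. Of all tested genes 12.8% rose, 12.1% fell and 25.0% changed in either direction in that comparison. The 6 were Hspd1, Hspe1, Cct3, Cct4, Cct6a and Cct8. The libraries did not overlap for 7 genes, all of them higher, which held for 19.1% of all genes, while 19.4% were lower with no overlap. The median log2 change was 0.09 over the CCT subunits and 0.41 over the mitochondrial pair, against -0.01 over all genes. Without the first library with 2 extra copies 9 genes rose, with Cct2 (adjusted p = 0.0199), Cct5 (adjusted p = 7.72e-04) and Cct7 (adjusted p = 0.0115) added. Without the third library of either group 4 genes rose. With the trend over transcript length taken out, the log2 changes of Cct2 and Cct5 moved to 0.03 and 0.05. This comparison and the last share the libraries with 2 extra copies, and both comparisons with uninduced cells share the uninduced libraries.

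In cells with no extra copy, set against uninduced cells, 1 gene rose (Hspd1) and 2 fell (Tcp1 and Cct2). Of all tested genes 7.10% rose, 6.39% fell and 13.5% changed in either direction. The libraries did not overlap for 9 genes, 3 of them higher and 6 lower with no extra copy, against 16.1% and 15.4% of all genes. Tcp1 was lower by 0.12 on the log2 scale (log2 change -0.12, SE 0.03, adjusted p = 0.0106), a call lost without the third library of either group (adjusted p = 0.0720 without that of cells with no extra copy and 0.0533 without the uninduced one). Cct2 had a log2 change of -0.11 (SE 0.03, adjusted p = 0.0306), and this call was lost in DESeq2, with library totals alone, and without any 1 library of these 2 groups. The other CCT subunits had log2 changes between -0.07 and 0.05 and did not pass the test. All 7 CCT genes other than Cct4 had negative log2 changes under every alternative run. The median log2 change was -0.07 over the CCT subunits and 0.14 over Hspd1 and Hspe1, against 0.00 over all genes.

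Cct4, the delta subunit, followed the order of the mitochondrial pair and not that of the other CCT genes, a feature singled out after its values were seen. It had 547.5, 549 and 573 CPM with 2 extra copies, 492, 498 and 483 CPM with no extra copy and 474, 474 and 472 CPM in uninduced cells. All 3 groups were separate, with cells with no extra copy in the middle. Cct4 was 1.13-fold higher with 2 extra copies than with no extra copy (adjusted p = 3.65e-04) and 1.18-fold higher than in uninduced cells (log2 change 0.23, SE 0.03, adjusted p = 4.43e-06), while cells with no extra copy and uninduced cells differed by 0.05 on the log2 scale (SE 0.03, adjusted p = 0.336). Cct4 CPM divided by the mean CPM of the other CCT genes was 0.796, 0.751 and 0.790 in cells with 2 extra copies, 0.763, 0.776 and 0.758 in cells with no extra copy and 0.708, 0.698 and 0.696 in uninduced cells. The ratio was lower in every uninduced library than in every induced one, and the 2 induced populations overlapped. No test is given for this ratio.

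**Figure D3:**
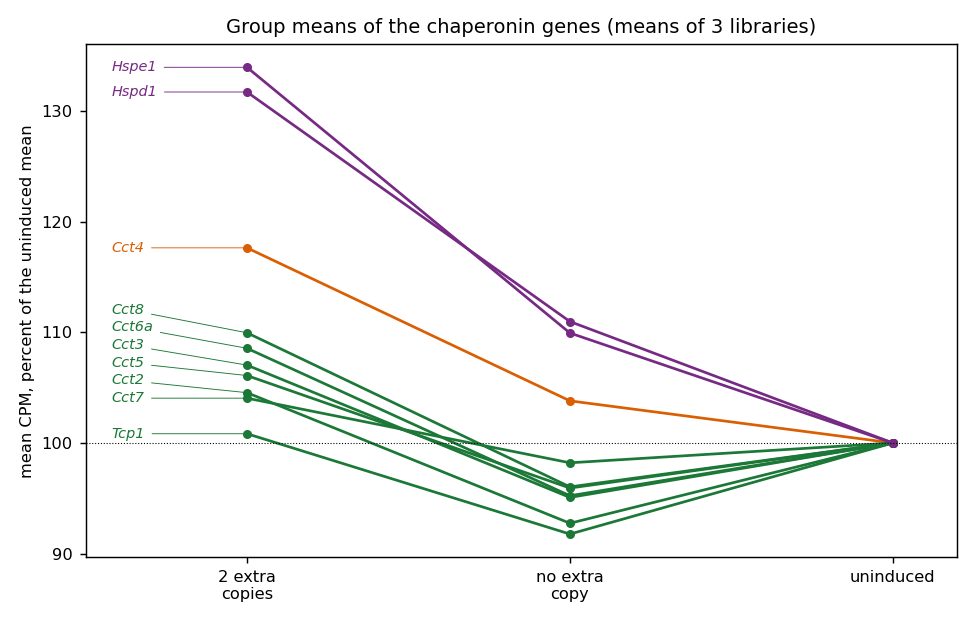
Mean CPM of each gene over 3 libraries as a percent of its uninduced mean (vertical axis, not from 0) in cells with 2 extra copies, cells with no extra copy and uninduced cells; purple is Hspd1 and Hspe1, orange is Cct4 and green the other 7 CCT subunits. With no extra copy the green lines lie below 100, the lowest being Tcp1 at 91.8, while Hspd1 lies at 111 and Cct4 at 104.

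Levels of different genes were compared only per transcript length, as TPM (counts divided by length and scaled to a common total) computed here with the longest annotated transcript of each gene. Hspd1 had the highest level in every group, at 1319 ± 28.8 TPM with 2 extra copies, 1151 ± 23.3 TPM with no extra copy and 1038 ± 22.1 TPM in uninduced cells (SD, n = 3 each). Hspe1 had 1045 ± 23.9, 889 ± 30.6 and 808 ± 51.2 TPM in the same order, which placed it next to Hspd1 in both induced populations and behind Cct2 and Cct5 as well in uninduced cells. Its place turned with the length used. With the union of exons Cct2 lay above Hspe1 in both induced populations, at 982 against 921 TPM with 2 extra copies and 902 against 782 TPM with no extra copy, and with the longest transcript of the basic annotation set Hspe1 (905 ± 56.3 TPM) lay above Cct2 (849 ± 15.5 TPM) in uninduced cells, within their spread. With the longest annotated transcript, Hspe1 and Cct5 in uninduced cells (Cct5 at 853 ± 6.91 TPM) did not differ beyond their spread. Cct2 led the CCT genes, at 952 ± 35.5, 875 ± 8.95 and 944 ± 16.2 TPM, and Cct5 followed. The low end of the order depended on the length used as well. Cct7 was lowest with the longest transcript (439 ± 14.6, 429 ± 5.64 and 437 ± 6.96 TPM), but the longest transcript of Tcp1, Cct3, Cct7 and Hspe1 is annotated as a retained intron. With the basic set, a length chosen after the data were seen, Cct4 was lowest in every group (476 ± 8.83, 436 ± 4.55 and 419.5 ± 8.16 TPM), and Hspd1 and Hspe1 did not differ beyond their spread (1186 ± 26.2 and 1170 ± 26.4 TPM with 2 extra copies).

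Across the 9 libraries the CCT genes correlated with each other at a Pearson r of 0.38 to 0.98 (median 0.80), and Hspd1 with Hspe1 at 0.94. Hspd1 correlated with the CCT genes at 0.20 to 0.97, with the highest value for Cct4. These values describe points that share library scaling and group. Of 9474 genes that averaged 10 CPM or more, the 5 whose log level was most like the mean of the CCT genes were Lrpprc (r = 0.97), Nif3l1, Rpl10a, Rpl7 and Twnk. Lrpprc binds mitochondrial mRNA, Twnk is the mitochondrial DNA helicase, and Rpl10a and Rpl7 are ribosomal proteins with close copies in the genome. The 5 most like Hspd1 and Hspe1 were Cnot8 (r = 0.99), Polr1d, Eif3l, Rpl7l1 and Dnttip2. Cnot8 is a deadenylase of the CCR4-NOT complex, Polr1d a subunit shared by RNA polymerases I and III, and Eif3l a subunit of an initiation factor of translation. Eif3l averaged 496 CPM with 2 extra copies, 432 CPM with no extra copy and 386 CPM in uninduced cells.

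Prefoldin, a hexamer that hands unfolded actin and tubulin to CCT, had 2 of 6 subunits higher with 2 extra copies than with no extra copy, Pfdn2 at 1.16-fold (adjusted p = 0.00631) and Pfdn6 at 1.13-fold (adjusted p = 0.0244), and none lower. Of all tested genes 8.30% were higher and 7.70% lower in that comparison. None of the 6 passed between cells with 2 extra copies and uninduced cells, where 25.0% of all tested genes did. In cells with no extra copy 1 of 6, Pfdn1, was higher than in uninduced cells (1.20-fold, adjusted p = 0.00107), as were 7.10% of all tested genes. Of the 4 phosducin-like genes, whose products bind CCT, none rose and 2 fell with 2 extra copies against no extra copy. Those were Pdcl3, 1.18-fold lower (adjusted p = 0.0310), and the low Pdcl2, at 2.28, 1.26 and 1.88 CPM against 3.40, 4.47 and 2.86 CPM. Of the related chaperonin genes, Cct6b, a testis subunit, had 1.05 CPM at most, and Cct8l1 was at 0 in 7 of 9 libraries. Mkks had between 26.7 and 32.6 CPM and passed the test in no comparison. Of the 3 other related genes tested, the Bardet-Biedl gene Bbs10 was lower with 2 extra copies than in uninduced cells (1.54-fold, adjusted p = 0.0276), at 3.51, 3.98 and 3.77 CPM against 5.62, 6.05 and 5.70 CPM.

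Genes of the proteins folded by CCT went both ways. Of 13 actin and tubulin genes, 3 rose and 4 fell in cells with 2 extra copies against cells with no extra copy. Against uninduced cells, 3 rose and 1 fell with 2 extra copies, and 5 rose and 1 fell with no extra copy. The shares of all tested genes that rose and fell were 8.30% and 7.70%, 12.8% and 12.1%, and 7.10% and 6.39% in the same order. Tuba1c had 633, 701 and 689 CPM with 2 extra copies, 589, 591 and 574 CPM with no extra copy and 633, 638.5 and 643 CPM in uninduced cells, the order of most CCT genes. Tubb2a was 1.38-fold lower with 2 extra copies than with no extra copy (adjusted p = 1.64e-05). Tuba1b, Tuba1c, Tubb2a and Tubb2b have close copies, so their counts are uncertain. Of 10 other proteins known to need CCT, 4 were higher and 1 lower with 2 extra copies than with no extra copy. Cdc20, an activator of the anaphase-promoting complex, was 1.22-fold higher (adjusted p = 8.95e-06) and the checkpoint protein Bub3 1.20-fold higher (adjusted p = 4.25e-05), while the G protein subunit Gnb2 was 1.11-fold lower (adjusted p = 0.0260). Against uninduced cells 3 of the 10 rose with 2 extra copies and none fell, and in cells with no extra copy 2 fell, Cdc20 and the mitotic kinase Plk1 (1.20-fold lower, adjusted p = 0.00156), and none rose. Of 5 tubulin cofactors, which act on tubulin after CCT, 1 passed in 1 comparison, Tbca, which was higher with no extra copy than in uninduced cells (log2 change 0.22, adjusted p = 0.0153), a gene with a close copy.

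Of 15 other chaperones and proteases of mitochondria, 8 rose and none fell in cells with 2 extra copies against cells with no extra copy. In that comparison 8.30% of all tested genes rose and 7.70% fell. The median log2 change of the 15 was 0.10, against -0.01 over all genes. Trap1, the mitochondrial Hsp90, had 253.5, 268.5 and 269 CPM with 2 extra copies, 227, 225 and 231 CPM with no extra copy and 220.0, 226 and 223.5 CPM in uninduced cells. It was 1.16-fold higher than with no extra copy (adjusted p = 2.20e-04) and 1.18-fold higher than in uninduced cells (adjusted p = 1.79e-05). The protease gene Htra2 was 1.28-fold and 1.43-fold higher in these comparisons (adjusted p = 5.00e-04 and 9.08e-07), but 2 genes on the opposite strand together overlap 43.7% of its exonic length and counting by strand is not stated. Against uninduced cells 6 of the 15 rose with 2 extra copies and none fell, where 12.8% of all tested genes rose and 12.1% fell. In cells with no extra copy none rose and 1 fell, where 7.10% and 6.39% of all tested genes did. The 1 was Hspa9, the matrix Hsp70 that hands proteins to Hsp60. Hspa9 had 963, 972 and 1011 CPM with 2 extra copies, 915, 899 and 939 CPM with no extra copy and 1037, 1046 and 1038 CPM in uninduced cells. It was thus lower in both induced populations than in uninduced cells in every library, and with no extra copy it was 1.13-fold lower (adjusted p = 1.29e-04), where Hspd1 was 1.11-fold higher.

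Transcription factors tied to stress of mitochondria were lower in both induced populations. All 3 tested, Atf4, Atf5 and Ddit3, fell with 2 extra copies against uninduced cells and with no extra copy against uninduced cells. Of all tested genes 12.1% and 6.39% fell in these comparisons. With 2 extra copies against no extra copy 1 of the 3 fell, Ddit3 (1.37-fold, adjusted p = 0.0221), and none rose, where 7.70% of all tested genes fell. Atf5 had 48.4, 51.1 and 53.0 CPM with 2 extra copies, 52.9, 55.2 and 45.5 CPM with no extra copy and 93.5, 101.5 and 102 CPM in uninduced cells. Ddit3, which encodes CHOP, had 10.2, 8.67 and 9.27 CPM with 2 extra copies, 14.4, 11.8 and 12.6 CPM with no extra copy and 28.7, 26.3 and 25.1 CPM in uninduced cells. Atf5 was 1.94-fold lower with 2 extra copies (adjusted p = 7.57e-13) and 1.90-fold lower with no extra copy (adjusted p = 7.16e-13) than in uninduced cells. Ddit3 was 2.85-fold lower (adjusted p = 1.96e-11) and 2.08-fold lower (adjusted p = 1.41e-08), while Hspd1 was higher in both induced populations.

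Of 23 chaperones and cochaperones of the cytosolic Hsp70 and Hsp90 systems, 9 rose and none fell with 2 extra copies against no extra copy. Against uninduced cells 10 rose and 1 fell with 2 extra copies, and 2 rose and 2 fell with no extra copy. Over all genes, 8.30% rose and 7.70% fell in the first comparison, 12.8% and 12.1% in the second, and 7.10% and 6.39% in the third. Hspa4, a nucleotide exchange factor of Hsp70, had 904, 881 and 896 CPM with 2 extra copies, 825, 823 and 844 CPM with no extra copy and 767, 756 and 743 CPM in uninduced cells, the order of Hspd1. The Hsp90 cochaperone Cdc37 was likewise 1.20-fold higher with 2 extra copies than in uninduced cells (adjusted p = 6.61e-06). Ptges3, the Hsp90 cochaperone p23, followed the order of most CCT genes, being 1.16-fold higher with 2 extra copies than with no extra copy (adjusted p = 3.49e-04) and 1.14-fold lower with no extra copy than in uninduced cells (adjusted p = 9.42e-04). A list of 7 heat shock genes included the heat shock factors Hsf1 and Hsf2. Of the 7, none rose and 1 fell with 2 extra copies against no extra copy. Against uninduced cells, 1 rose and 1 fell with 2 extra copies, and 2 rose and none fell with no extra copy. The small heat shock gene Hspb1, which has a close copy, had 315, 361 and 382 CPM with 2 extra copies, 417, 436 and 427 CPM with no extra copy and 304.5, 317 and 324.5 CPM in uninduced cells. It was 1.21-fold lower with 2 extra copies than with no extra copy (adjusted p = 0.00172), higher with 2 extra copies than in uninduced cells (log2 change 0.16, adjusted p = 0.0325) and 1.35-fold higher with no extra copy than in uninduced cells (adjusted p = 1.66e-05). Hsf2, a heat shock factor, was lower with 2 extra copies than in uninduced cells (log2 change -0.23, adjusted p = 0.00950). The low Cryab was higher with no extra copy, at 3.57, 3.80 and 1.67 CPM, than in uninduced cells, at 1.26, 0.882 and 2.00 CPM (adjusted p = 0.0138), and the libraries of these groups overlapped.

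**Figure D4:**
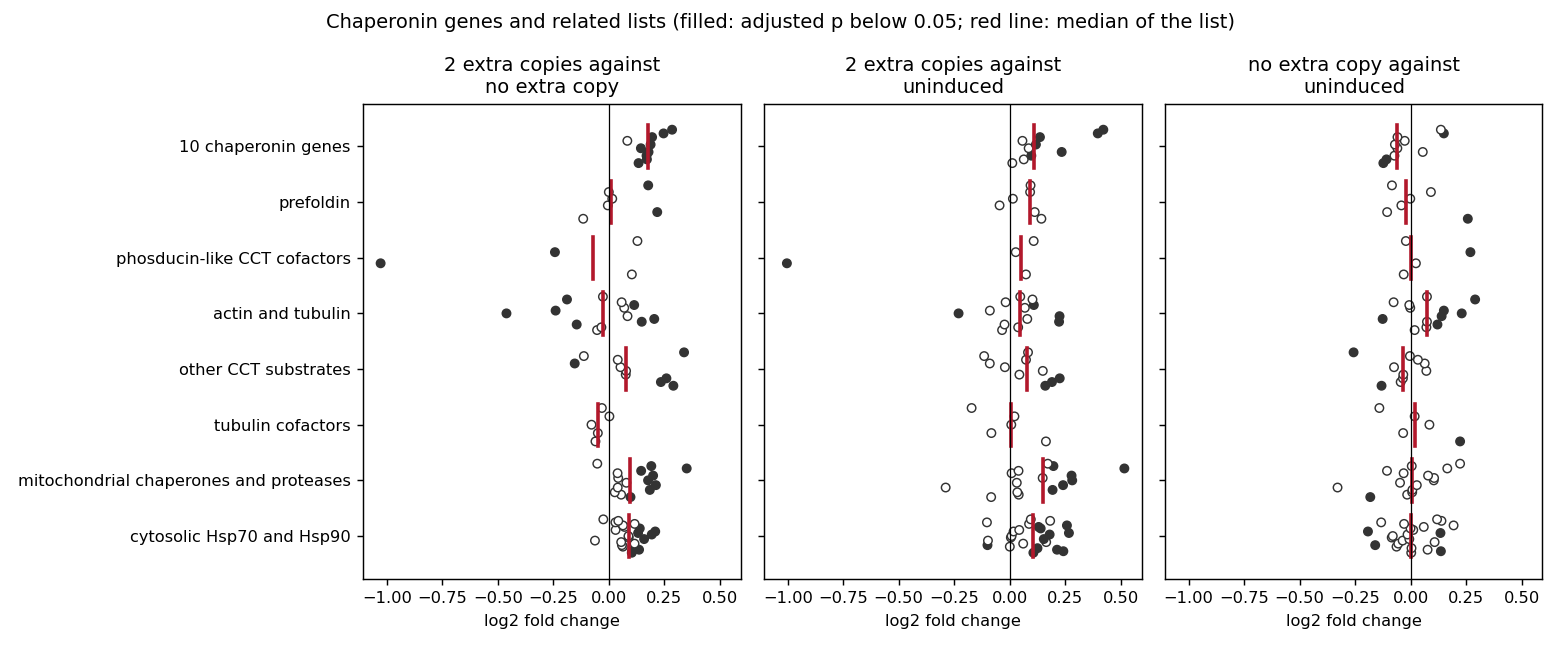
Log2 fold change (horizontal axis) of every tested gene of the chaperonin set and of 7 related lists, in the 3 comparisons; filled points passed the test at an adjusted p below 0.05 and red lines are list medians. In the left panel the chaperonin median is 0.18 and that of the mitochondrial chaperones and proteases 0.10, while the prefoldin median is 0.01.

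Markers of other cell types moved between the groups as well. The 9 fibroblast markers summed to between 120 and 127 CPM with 2 extra copies, 193 and 218 CPM with no extra copy and 76.6 and 82.8 CPM in uninduced cells. Of the 6 that were tested, 5 rose and none fell with no extra copy against uninduced cells (median log2 change 1.36). With 2 extra copies, 5 rose and none fell against uninduced cells, and none rose and 4 fell against no extra copy. Shares of all tested genes that rose and fell were 7.10% and 6.39%, 12.8% and 12.1%, and 8.30% and 7.70% in the same order. The collagen gene Col1a2 had 23.3, 19.5 and 17.2 CPM with 2 extra copies, 33.8, 38.5 and 36.9 CPM with no extra copy and 9.28, 10.1 and 10.6 CPM in uninduced cells, and Col1a1 had 16.8, 15.7 and 15.4 CPM, 22.4, 27.8 and 26.0 CPM, and 10.1, 9.07 and 8.01 CPM in these groups. Tagln, which other cells also express, had the highest CPM of the list in every library. Of the other defining markers, Lum was at 0 in 8 of 9 libraries and Dcn never passed 0.510 CPM. The 8 extraembryonic endoderm markers summed to between 155 and 163 CPM with 2 extra copies, 231.5 and 263 CPM with no extra copy and 180 and 183 CPM in uninduced cells. Sparc had the highest CPM of this list in every library. Of the 4 that were tested, 1 rose with no extra copy against uninduced cells, Sparc (1.55-fold, adjusted p = 2.82e-12). None fell, and the median log2 change was 0.08. With 2 extra copies none rose, while 3 fell against no extra copy and 2 against uninduced cells. The others of this list had too few counts to be tested. Both sums were highest with no extra copy, where 7 of 8 CCT genes had their lowest mean. The part of any other cell types, of the trend over transcript length and of the first library with 2 extra copies in the chaperonin changes was not tested beyond the values given above.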

How the data were processed

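The deposited table held expected counts per gene, which the authors estimated with RSEM 1.17 on GRCm38, per the submitters' processing notes, which also list Picard, cutadapt and limma; the aligner and any counting by strand are not given in the sources used here. A read that fits several genes is split among them in such counts. Of the CCT genes, Tcp1, Cct7 and Cct8 had fractional counts in 9 of 9 libraries, Cct6a in 8 and Cct3 in 7. The largest gap to a whole number was 0.49, for Cct8. Counts were rounded, and genes with low counts were removed with filterByExpr of edgeR 4.0.16 (R 4.3.3), which kept 13424 genes with 99.8% of all counts. CPM used TMM scaling. Differences were tested with edgeR's quasi-likelihood F-test (robust, all 9 libraries, 1 coefficient per group), with Benjamini-Hochberg adjustment over the 13424 genes; adjusted p-values are from this test where no other is given. A gene was called, or said to rise or fall, at an adjusted p below 0.05. The common biological coefficient of variation was 0.0394. SE is that of the log2 change. Each library's counting depth, given as its total, limits counting error only.

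Symbols and lengths came from GENCODE M21 (GRCm38) and promoter windows from RefSeq (GRCm38.p6). A close copy is a transcript of another gene that matches 50% or more of the length at 95% identity or more in minimap2 2.31-r1302. Genes on the opposite strand overlap 14.2% of the exonic length of Tcp1, 12.5% of that of Cct6a, 6.22% of Cct8 and 3.16% of Cct7, and 37.3% of Tuba4a. Alternatives were DESeq2 1.42.0, limma-voom (limma 3.58.1), other scalings, no filter, only the 2 groups compared, a replicate block, length offsets and each library left out; 1 more, leaving out the first library with 2 extra copies together with length offsets, was chosen after seeing the data. The members and lists were chosen with earlier results of these data known. The rule for named genes took the 10 members, Myc and Mycn, up to 2 genes per direction of each related list with the smallest p among called genes, and the 5 genes most alike in profile to the CCT genes and to the mitochondrial pair. Only a part of the genes taken from the related lists is described, and Acta2, Tubb6, Ahsa1, Dnaja1, Lama1 and Dab2 are among those left out. Atf4, Lum, Dcn, Col1a1, Cct6b, Cct8l1, Mkks, and levels of Tuba1c and Hspa9 beyond that rule, were given after their values were seen.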

Additional observations from a re-analysis of the deposited data

How the results depend on the processing

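Between cells with 2 extra copies and cells with no extra copy, 9 genes rose under every alternative except 3, which called 10 (the replicate block with length offsets, and leaving out the first library with 2 extra copies with or without length offsets); none fell. Leaving out 1 library gave 9 to 10 genes higher in that comparison, 4 to 9 higher with 2 extra copies against uninduced cells, and 1 to 2 higher and 0 to 2 lower with no extra copy against uninduced cells (4 lower with length offsets and without the first library with 2 extra copies). In this last comparison, where 1 gene rose and 2 fell, DESeq2 called 1 lower, library totals alone 2 higher and 1 lower, and the RLE scaling, no filter and the replicate block 2 higher each; the second gene was Hspe1. The replicate block with length offsets called 3 lower. Of the changes of single genes, 563 kept direction and side of the threshold, 20 lost a call, 16 gained one and 1 reversed: Tcp1, with 2 extra copies against uninduced cells, had a log2 change of -0.0078 with library totals alone (adjusted p = 0.887). Same-numbered libraries showed no sign of pairing across groups: deviations from their group means correlated at -0.08 to 0.08, and those of other pairs at -0.08 to 0.06. With 3 libraries in each group, these correlations cannot exclude that same-numbered samples shared a culture. Levels per length moved by more than the SD with 59 of the 60 other length choices. With 3 libraries in each group, calls near the threshold were lost in some runs that left out 1 library. These were Cct3 and Cct6a with 2 extra copies against uninduced cells, and Tcp1 and Cct2 with no extra copy. Cct2 kept a log2 change of -0.1005 to -0.1146 whichever library of its 2 groups was left out. In that comparison 13.5% of all genes were called, and 8.72% to 10.8% without 1 of those libraries. The cause was not tested.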
